A study of Homo sapiens with 8 samples.

Results

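Cell division needs 2 large gene programmes, and 41 of their genes were described here across 8 arrays of cultured human liver cells. The genes were written down by name: 14 act in DNA replication and 27 in mitosis. They were found by matching the gene symbol of each array probe to those names. Of 20046 genes that the arrays' annotation names, the 41 are represented by 60 probes. A gene counted as measured when a probe of it had a detection p under 0.05 on at least 2 arrays, which 11031 genes did. Among the members, 37 were measured, 12 of them replication and 25 mitosis genes. The other 4 were CDC6, MKI67 and BUB1B, detected on 0 arrays, and RRM2, detected on 1.

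The arrays were Illumina HumanHT-12 v4 bead chips, read in 1 colour, with 1 RNA sample per array. In perfused 3D culture (2 arrays) the cells sat in a microporous polycarbonate scaffold inside a bioreactor, through which a peristaltic pump moved medium. In static 3D culture (3 arrays) the same kind of scaffold stood in wells without flow. In 2D culture (3 arrays), the study's control, the cells grew as a monolayer. All cultures ran for 5 days, and no further treatment or genetic change is named. The monolayers were seeded with 0.25 of the number of living cells put on the scaffolds, so format and seeding differ together between them. The sample labels name the hepatocarcinoma cell line HepG2, whereas the design text speaks of hepatocytes of several donors. The labels do not tie an array to a donor or a culture, so the p-values measure only the spread between these samples. Perfused cultures number 3 in the design text, and 2 were analysed here.

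Before S phase, CDC6 and CDT1 load the MCM2 to MCM7 helicase ring onto replication origins. GINS and MCM10 then take part in starting the helicase, the clamp PCNA holds polymerases on DNA, and TYMS and ribonucleotide reductase (RRM1 with RRM2) supply nucleotides. Entry into mitosis follows when CDK1 binds cyclins A and B, after which kinases, motors and the spindle checkpoint separate the chromosomes through the anaphase-promoting complex. Transcription of the replication genes is known to depend largely on E2F factors. Many mitosis genes instead carry a cell cycle homology region (CHR), bound by the DREAM and MMB complexes, beside CCAAT boxes bound by NF-Y. Hepatocytes of adult liver are mostly out of the cycle and re-enter it after tissue loss, while hepatoma lines divide continuously.

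The division into replication and mitosis genes can be read in part, though not gene by gene, in the DNA in front of them. RefSeq promoter windows (assembly GRCh38.p14) running from 250 bases before to 50 bases after the start site were at hand for 34 of the 41 genes, 12 replication and 22 mitosis genes. No window was at hand for MCM4, MCM5, AURKA, UBE2C, BIRC5, TPX2 and FOXM1. Both strands were searched for 3 motifs, and matches were allowed to overlap. The E2F search used TTTCCCGC, TTTGGCGC, TTTCGCGC and TTTGCCGC, the CHR search TTTGAA and TTCGAA, and the CCAAT search CCAAT itself. An E2F match stood in 9 of 12 replication windows and 3 of 22 mitosis windows, against 3.33% of all 27305 genes with a window. A CHR match stood in 2 of 12 replication windows and 16 of 22 mitosis windows, against 16.6% of all. CCAAT boxes were common to both, in 9 of 12 and 20 of 22, against 35.7% of all. Windows with E2F but no CHR match numbered 8 among the replication genes and 0 among the mitosis genes. Those with CHR but no E2F match numbered 1 and 13, in the same order. A match describes letters only, not a site in use.

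Stretches of 6 of these windows are shown as examples of the motifs in each programme, the first 3 from replication and the last 3 from mitosis genes. Each runs 5′ to 3′ on the gene's strand, and capitals mark the motif matches. The MCM6 stretch (chr2:135876494-135876603, minus strand) holds pairs of overlapping E2F matches and CCAAT boxes read on the other strand (ATTGG). The MCM6 window also has a CHR match, upstream of the stretch shown. PCNA (chr20:5126638-5126712, minus strand) has 1 E2F match between 2 CCAAT boxes. GINS2 (chr16:85688955-85689014, minus strand) shows an E2F match alone within the stretch. CCNB2 (chr15:59105016-59105130, plus strand) has 3 CCAAT boxes followed by a CHR. The windows of PCNA, GINS2 and CCNB2 each also have a CCAAT box upstream of the stretch shown. PLK1 (chr16:23678804-23678873, plus strand) and PRC1 (chr15:90994541-90994600, minus strand) each have 1 CCAAT box and 1 CHR.
MCM6: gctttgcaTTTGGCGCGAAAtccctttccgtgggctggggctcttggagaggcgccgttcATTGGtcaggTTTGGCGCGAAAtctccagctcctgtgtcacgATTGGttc
PCNA: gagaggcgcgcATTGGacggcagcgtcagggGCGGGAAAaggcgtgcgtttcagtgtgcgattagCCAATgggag
GINS2: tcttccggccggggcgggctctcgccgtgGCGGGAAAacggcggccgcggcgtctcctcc
CCNB2: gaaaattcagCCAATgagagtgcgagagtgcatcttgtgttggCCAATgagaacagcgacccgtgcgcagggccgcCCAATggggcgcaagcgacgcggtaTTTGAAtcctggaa
PLK1: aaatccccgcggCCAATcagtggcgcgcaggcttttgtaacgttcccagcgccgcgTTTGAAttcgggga
PRC1: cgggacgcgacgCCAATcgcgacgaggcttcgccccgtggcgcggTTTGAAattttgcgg

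Arrays stood apart in a way their groups do not explain. Static 3D replicate 1 and 2D replicate 1 lay above all 6 other arrays for each of the 37 measured members, against 12.8% of the 11031 genes tested. The filter on detection forces part of this count: 10 members (2 replication, 8 mitosis) were detected on those 2 arrays only. Among the 13 members detected on all 8 arrays, 13 lay above the other 6 on both, where the background was again 12.8%, now of 7261 genes. The 2 arrays were singled out after their values were seen and lie in different groups, so no test was made on them.

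Markers of some other cell types moved with these arrays, and those of others did not. Over 14 measured macrophage genes, 4 were detected on static 3D replicate 1 and 7 on 2D replicate 1, against 13 or 14 on each other array. Their mean log2 level was 7.06 and 7.05 there and 9.21 to 10.56 elsewhere. The detection filter favours this contrast, because a gene detected only on the other arrays counts as measured. Of the 14 genes, 3 were detected on all 8 arrays. C1QB of macrophages, COL1A1 of fibroblasts and PECAM1 of endothelium were not detected on the 2 arrays and lay at 10.91 to 12.77, 10.95 to 12.23 and 8.43 to 10.11 on the other 6, which goes against a label of hepatoma cells alone there. CD68, a lysosomal protein gene of macrophages, was detected on all, at 12.09 and 11.44 on the 2 arrays and 11.26 to 13.01 on the others. Hepatocyte genes (12 measured) averaged 11.36 on 2D replicate 1 and 12.65 to 14.07 on the others, and ALB, the albumin gene, lay at 15.6 to 15.8 everywhere. Quantile normalisation gave ALB the same value, 15.69, on static 3D replicates 1 and 2 and perfused replicate 1. Such ties arise where a gene holds the same rank, so ALB tells these arrays apart poorly. Of 6 hepatoma and fetal liver genes measured, 6 were detected on each of the 2 arrays and 3 or 4 on each other array, with AFP, the fetal albumin relative, at 9.44 and 10.25 against 8.87 to 9.88. The detection filter favours this count, because a gene detected on the 2 arrays alone counts as measured. By level, 1 of the 6 lay above all other arrays on both, and 0 of the 2 that were detected on all 8 arrays. Of endothelial genes 1 of 3 measured lay below the other 6 arrays on both, of fibroblast genes 8 of 10, of lymphocyte genes 4 of 9 and of cholangiocyte genes 1 of 6. The share of all genes lying below on both was not computed, so these counts cannot be set against a background. The detection filter favours them in the same way, and 2 of the 10 fibroblast genes were detected on all 8 arrays. The T cell gene CD3D lay at 6.84 and 6.88 on the 2 arrays and 6.83 to 7.28 elsewhere, and the bile duct keratin KRT19 at 14.61 and 14.86 against 13.84 to 14.89. The part of cell composition in the results that follow was not tested. In bulk RNA, fewer dividing cells and less RNA per dividing cell cannot be told apart.

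How many of the members were detected showed the same picture. On the perfused arrays 21 and 21 of the 41 were detected. Static 3D gave 37, 18 and 21, and 2D gave 38, 25 and 17, in the order of replicates. The mitosis genes accounted for most of that: of 27, the perfused arrays detected 14 and 13, static 3D detected 25, 10 and 13, and 2D detected 25, 15 and 9. Of the 14 replication genes, 7 and 8 were detected in perfused 3D, 12, 8 and 8 in static 3D, and 13, 10 and 8 in 2D.

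**Figure D1:**
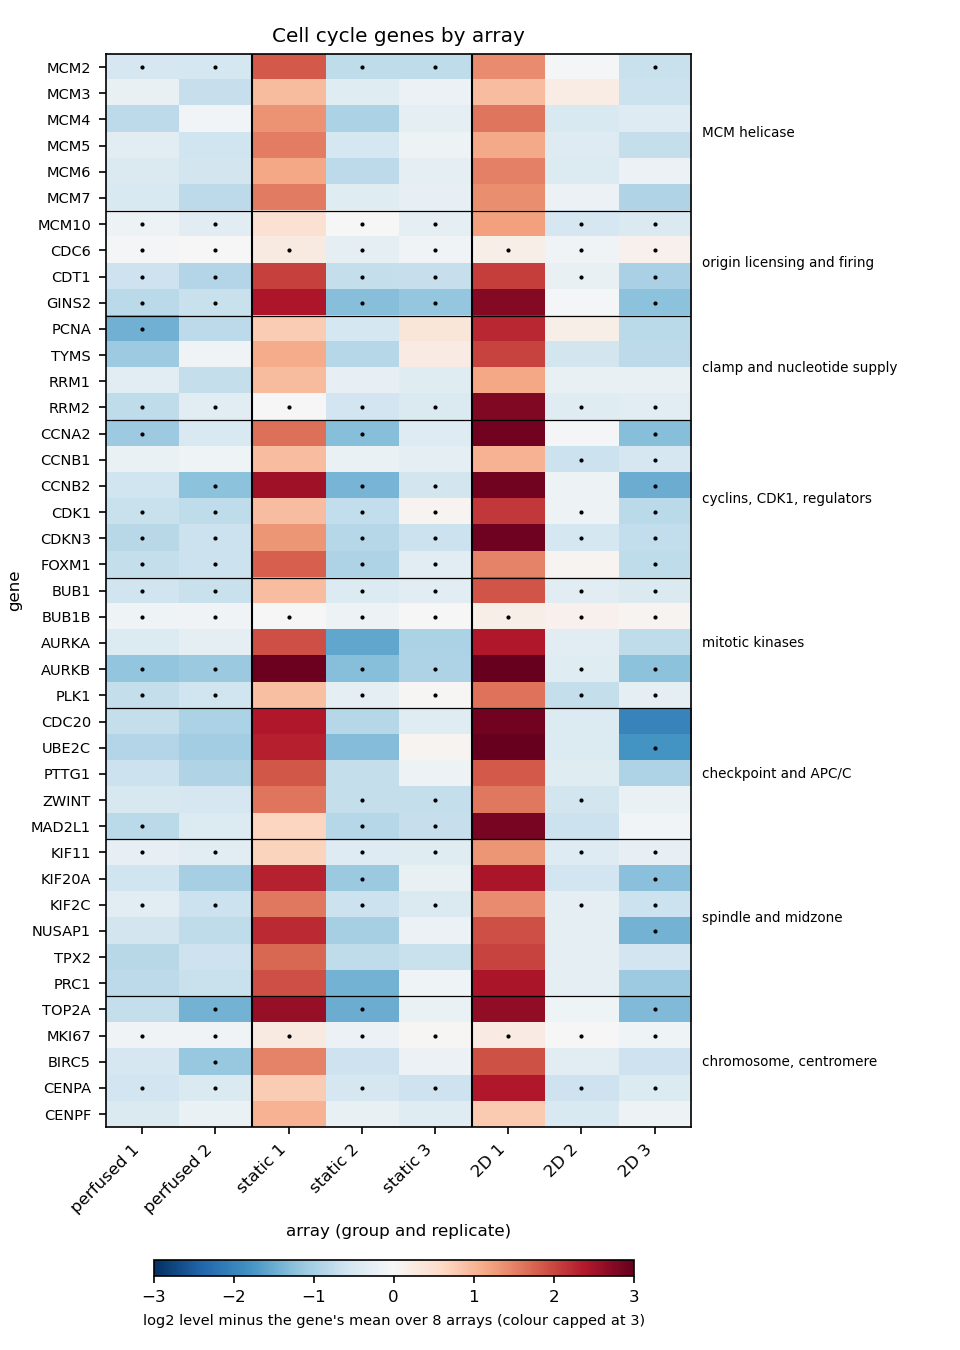
Log2 level of each of the 41 genes on each array minus that gene's mean over the 8 arrays, with genes (rows) grouped by role and arrays (columns) by culture group and replicate; the colour scale is capped at 3 and black dots mark values not detected. Static 3D replicate 1 and 2D replicate 1 are red for the 37 measured genes, the 2 perfused arrays are pale to blue, and CDC6, BUB1B and MKI67 carry dots on all 8 arrays.

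The genes of the helicase ring were high on both of these arrays. MCM6 lay at log2 levels of 9.90 and 9.80 on the perfused arrays, 11.49, 9.56 and 10.04 on the static 3D arrays, and 11.84, 9.93 and 10.17 on the 2D arrays. MCM7 lay at 10.27 and 9.93 in perfused 3D, 12.28, 10.36 and 10.48 in static 3D, and 12.11, 10.54 and 9.82 in 2D. For MCM6 both perfused arrays were below every 2D array, and for MCM7 below every static 3D array, by less than 0.1 at the nearest pair in each case. MCM5 had 8.74 and 8.46 in perfused 3D, 10.60, 8.52 and 8.90 in static 3D, and 10.18, 8.66 and 8.34 in 2D. MCM4 reached 10.85 and 11.10 on static 3D replicate 1 and 2D replicate 1, with 8.54 to 9.42 on the other 6. MCM3 moved least of the ring genes, with 12.01 and 11.97 on the 2 arrays and 10.37 to 11.27 on the others. MCM2, another ring subunit, was detected on 3 arrays, the 2 high ones at 8.71 and 8.29 and 2D replicate 2 at 6.85.

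Origin factors were near or under the detection limit outside the 2 high arrays. GINS2, a subunit of the GINS complex whose promoter stretch is shown above, lay at 6.28 and 6.42 in perfused 3D, 9.52, 5.81 and 5.92 in static 3D, and 9.85, 7.06 and 5.87 in 2D. It was detected on static 3D replicate 1 and on 2D replicates 1 and 2, and on no perfused array. CDT1, the loader of the helicase, was detected on the 2 high arrays only, at 8.59 in static 3D and 8.60 in 2D, with 5.56 to 6.30 elsewhere. MCM10 was likewise detected only there, at 7.38 and 8.15, with 6.41 to 6.91 elsewhere. CDC6, which loads the ring together with CDT1, lay at 5.53 to 6.07 on all arrays and was not detected on any.

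Of the clamp and nucleotide enzyme genes, PCNA, TYMS and RRM2 differed between the 2 high arrays, and RRM1 differed little. PCNA lay at 6.32 and 6.97 in perfused 3D, 8.52, 7.23 and 8.13 in static 3D, and 10.01, 7.93 and 6.95 in 2D. Perfused replicate 1 did not detect it, and both perfused arrays were below all static 3D arrays but not below 2D replicate 3. A second PCNA probe, detected on 6 arrays, lay between 6.66 and 7.42 throughout and did not show this pattern, so the 2 PCNA probes disagree. TYMS, thymidylate synthase, had 9.02 and 10.02 in perfused 3D, 11.24, 9.26 and 10.35 in static 3D, and 12.15, 9.56 and 9.34 in 2D. RRM1, the large subunit of ribonucleotide reductase, had 10.71 and 10.34 in perfused 3D, 11.99, 10.79 and 10.69 in static 3D, and 12.21, 10.82 and 10.82 in 2D. Its small subunit RRM2, detected on 2D replicate 1 alone at 9.24, lay at 6.47 on static 3D replicate 1 and 5.71 to 6.14 elsewhere. RRM1 thus stood high on both arrays and RRM2 on 1 of them.

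Cyclins and CDK1 open the mitosis genes. CCNB2, a B-type cyclin, lay at 6.81 and 6.19 in perfused 3D, 9.96, 6.02 and 6.85 in static 3D, and 10.30, 7.26 and 5.92 in 2D. CCNA2, the cyclin that spans S phase and G2, lay at 6.58 and 7.20 in perfused 3D, 9.32, 6.39 and 7.28 in static 3D, and 10.56, 7.60 and 6.38 in 2D. In both genes 2D replicate 3 had the lowest value of the 8 arrays. CCNB1, the other B-type cyclin, moved far less, with 8.14 and 8.26 on static 3D replicate 1 and 2D replicate 1 and 6.57 to 7.08 on the others. CDK1, the kinase these cyclins activate, was detected on the 2 high arrays alone, at 7.68 and 8.87, with 5.93 to 6.83 elsewhere. CDKN3, a phosphatase of CDKs, was detected on the same 2, at 7.83 and 9.41, with 5.63 to 5.98 elsewhere. FOXM1, a transcription factor of G2 and mitosis genes, had 8.65 and 8.36 there and 5.95 to 6.95 elsewhere.

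Mitotic kinases followed the same 2 arrays. AURKA, which matures centrosomes, was detected on all arrays and had 8.18 and 8.31 in perfused 3D, 10.53, 7.03 and 7.64 in static 3D, and 11, 8.26 and 7.83 in 2D. Among the other 6 arrays, the perfused values were above static 3D replicates 2 and 3 and level with 2D replicate 2. Its second probe gave 7.80 and 8.25 in perfused 3D, 10.41, 6.67 and 6.89 in static 3D, and 10.95, 7.94 and 7.22 in 2D, with both perfused arrays again above static 3D replicates 2 and 3. AURKB, the kinase of the chromosomal passenger complex, was detected on the 2 high arrays only, at 9.86 and 10.07, with 5.63 to 6.55 elsewhere. PLK1, a kinase of mitotic entry, was detected on those arrays at 7.46 and 8.18, with 5.85 to 6.60 elsewhere, and the checkpoint kinase BUB1 at 6.98 and 7.95, with 5.39 to 5.72 elsewhere. BUB1B, the related pseudokinase of the checkpoint, lay at 5.58 to 5.91 and was not detected.

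The widest swings came from the machinery of anaphase. CDC20, the activator of the anaphase-promoting complex, lay at 9.0 and 8.77 in perfused 3D, 12.12, 8.86 and 9.37 in static 3D, and 12.61, 9.31 and 7.72 in 2D. Its range of 4.89 on the log2 scale was the widest of the 37 measured members and ran within 2D alone. UBE2C, the ubiquitin-conjugating enzyme of that complex, had 10.61 and 11.25 on static 3D replicate 1 and 2D replicate 1 and 6.47 to 8.35 elsewhere. PTTG1, securin, which the complex destroys, had 8.56 and 8.30 in perfused 3D, 11.08, 8.50 and 9.05 in static 3D, and 11.06, 8.85 and 8.28 in 2D. The kinetochore gene ZWINT had 8.93 and 8.91 on the 2 high arrays and 6.61 to 7.13 elsewhere. MAD2L1, the checkpoint protein that holds CDC20, had 6.73 and 7.14 in perfused 3D, 8.20, 6.70 and 6.85 in static 3D, and 10.39, 6.90 and 7.48 in 2D. Unlike ZWINT, it was far apart on the 2 high arrays, and its second probe, detected on perfused replicate 1 only, lay at 6.17 to 7.10, with its lowest value on 2D replicate 1.

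Spindle genes were again high on both arrays and close to each other there. PRC1, which bundles microtubules of the midzone, had 8.30 and 8.43 in perfused 3D, 11.02, 7.68 and 8.96 in static 3D, and 11.53, 8.82 and 7.99 in 2D. TPX2, which activates AURKA on the spindle, had 7.10 and 7.31 in perfused 3D, 9.65, 7.15 and 7.25 in static 3D, and 9.95, 7.63 and 7.34 in 2D. Both perfused TPX2 values were below all 2D values, the nearest pair being 7.31 and 7.34. The cytokinesis motor KIF20A had 10.14 and 10.28 on the 2 high arrays and 6.58 to 7.62 elsewhere, and the microtubule binder NUSAP1 10.41 and 10.10 against 6.75 to 7.98. KIF2C, which shortens microtubules, had 8.07 and 7.90 against 5.84 to 6.22, and KIF11, which pushes spindle poles apart, 7.35 and 8.02 against 6.30 to 6.45. KIF2C and KIF11 were detected on the 2 high arrays only.

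Among genes of chromosome structure, TOP2A, the topoisomerase that untangles sister chromatids, lay at 7.30 and 6.61 in perfused 3D, 10.63, 6.54 and 7.82 in static 3D, and 10.68, 7.90 and 6.70 in 2D. It was detected on 5 arrays, among them 1 of the 2 perfused arrays. BIRC5, the survivin subunit of the passenger complex, had 7.13 and 6.49 in perfused 3D, 9.11, 7.0 and 7.45 in static 3D, and 9.53, 7.30 and 7.01 in 2D. CENPA, the histone that marks centromeres, was detected at 6.97 and 8.60 on static 3D replicate 1 and 2D replicate 1, with 5.58 to 5.79 elsewhere. CENPF, a kinetochore protein detected on all arrays, had the narrowest range of the 37, with 8.40 and 8.17 on the 2 arrays and 6.91 to 7.22 elsewhere. MKI67, the gene of the Ki-67 antigen commonly used to stain dividing cells, lay at 5.48 to 5.92 and was not detected on any array. Ki-67 could therefore not serve as a reading of division here.

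Averaged over each programme, static 3D replicate 1 and 2D replicate 1 stood highest in both, followed at a distance by 2D replicate 2 and static 3D replicate 3. The mean log2 level of the 12 replication genes was 8.32 and 8.36 on the perfused arrays, 10.27, 8.30 and 8.60 on static 3D, and 10.54, 8.70 and 8.25 on 2D. The 25 mitosis genes averaged 6.88 and 6.82 on the perfused arrays, 9.16, 6.66 and 7.14 on static 3D, and 9.68, 7.16 and 6.68 on 2D. By group, the replication mean was 8.34 ± 0.03 in perfused 3D (SD, n = 2), 9.05 ± 1.06 in static 3D (SD, n = 3) and 9.16 ± 1.21 in 2D (SD, n = 3). The mitosis mean was 6.85 ± 0.04 in perfused 3D (SD, n = 2), 7.66 ± 1.33 in static 3D (SD, n = 3) and 7.84 ± 1.61 in 2D (SD, n = 3). The SD of static 3D and of 2D exceeded every difference between these group means.

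**Figure D2:**
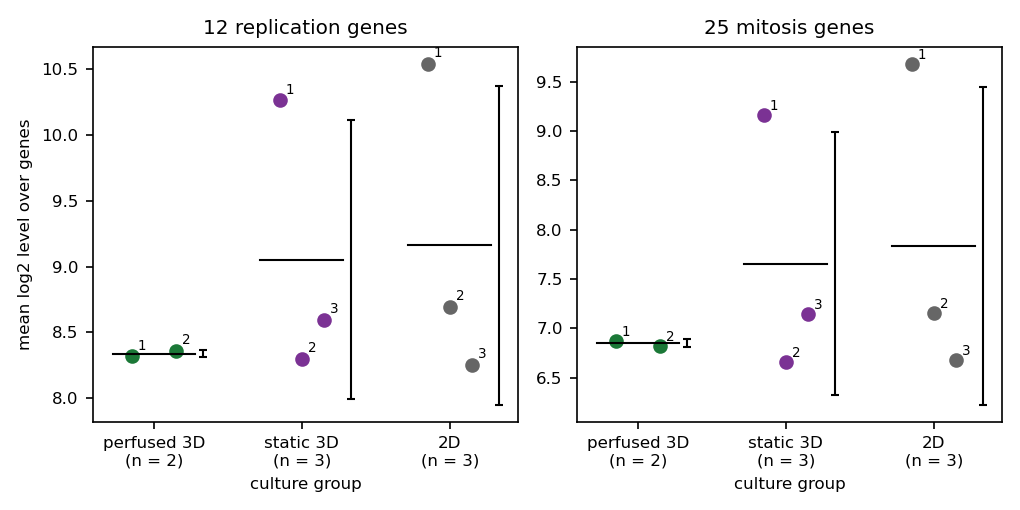
Mean log2 level over the 12 measured replication genes (left) and the 25 measured mitosis genes (right) on each array (points, numbered by replicate), with the group mean as a line and the SD as a bar; the vertical axes differ between the panels and do not start at 0. The perfused arrays sit at 8.32 and 8.36 on the left and 6.88 and 6.82 on the right, and replicate 1 of static 3D and of 2D lie far above their groups' other arrays.

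The mitosis programme spanned more than the replication programme. Replication minus mitosis, which can be read only across arrays because the probes differ, was 1.44 and 1.54 in perfused 3D, 1.10, 1.64 and 1.46 in static 3D, and 0.86, 1.54 and 1.58 in 2D. The 2 high arrays had the lowest values, and the other 6 lay between 1.44 and 1.64. Within groups, the median gap between the highest and lowest array was 0.31 for replication genes and 0.20 for mitosis genes in perfused 3D, where all genes had 0.32. In static 3D it was 1.96 for replication and 2.50 for mitosis genes against 0.61 for all genes, and in 2D 2.08 and 3.01 against 0.68. Restricted to genes detected on all arrays, the mitosis medians were 0.21 in perfused 3D, 2.92 in static 3D and 2.97 in 2D, and the replication medians 0.37, 1.94 and 1.91 in the same groups. The members thus varied more than the typical gene within static 3D and 2D. In perfused 3D they varied about as much as it or less, where 2 arrays give a gap from fewer samples.

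**Figure D3:**
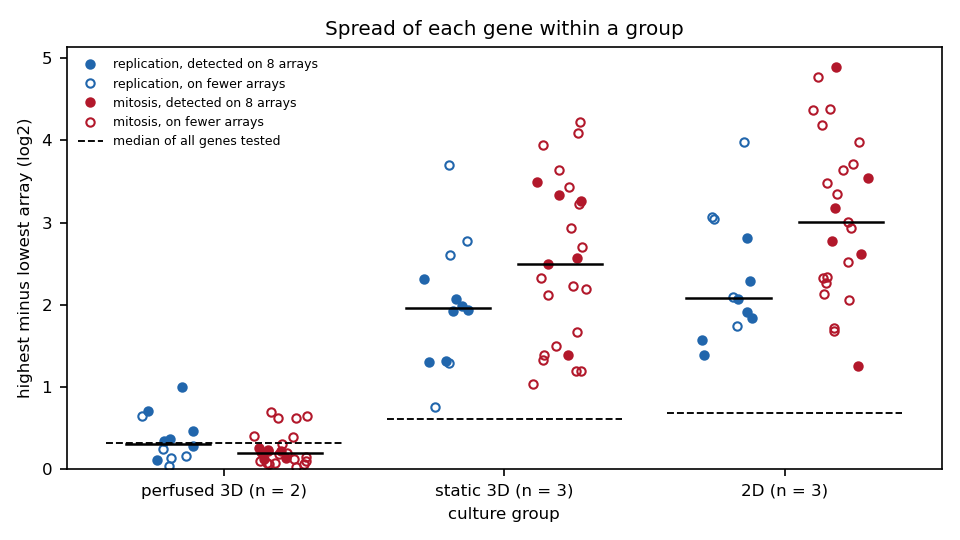
Highest minus lowest log2 level among a group's arrays for each measured gene (filled points for genes detected on 8 arrays, open points for the rest), with replication genes in blue and mitosis genes in red; solid lines are medians of the genes plotted and dashed lines the median of all 11031 genes. In static 3D and 2D the member medians of 1.96 to 3.01 stand above the dashed lines at 0.61 and 0.68, and in perfused 3D they lie at or below 0.32.

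Between the 2 high arrays, the replication ring was level and the rest was mostly lower in static 3D. Averaged over the 6 helicase genes, static 3D replicate 1 had 10.99 and 2D replicate 1 had 10.92, a difference of 0.07. The clamp and nucleotide genes averaged 10.58 on static 3D replicate 1 and 11.46 on 2D replicate 1, a difference of -0.87. Over all members, 27 of the 37 (8 replication, 19 mitosis) were lower on static 3D replicate 1, with a median difference of -0.23 for replication and -0.41 for mitosis genes against 0.05 for all genes. By more than 1 on the log2 scale, 6 members were lower there: MAD2L1 at -2.18, CENPA at -1.63, CDKN3 at -1.58, PCNA at -1.49, CCNA2 at -1.24 and CDK1 at -1.19. RRM2, not counted among the measured members, differed by -2.76. The other 10 members were higher on static 3D replicate 1, MCM2 by 0.42, MCM5 by 0.41, NUSAP1 by 0.31 and FOXM1 by 0.29 among them. Each difference is between single arrays and has no replicate error.

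**Figure D4:**
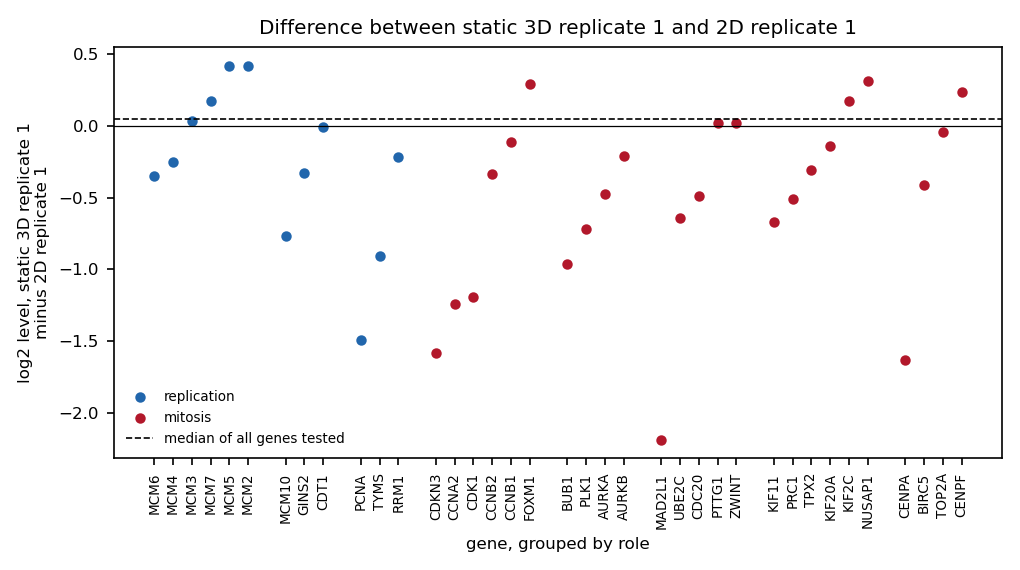
Log2 level on static 3D replicate 1 minus that on 2D replicate 1 for each of the 37 measured genes, grouped by role from the helicase (left) to chromosome genes (right), with replication in blue and mitosis in red; each point is 1 array minus 1 array. Helicase genes scatter round 0, MAD2L1 lies lowest at -2.18, and the dashed line at 0.05 is the median of all genes tested.

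Among the 6 remaining arrays, the highest value of a member fell on 2D replicate 2 for 14 members, static 3D replicate 3 for 12, 2D replicate 3 for 6, perfused replicate 2 for 3, and static 3D replicate 2 and perfused replicate 1 for 1 each. The top array therefore changed from gene to gene. Where 2D replicate 2 was highest of the 6, GINS2 had 7.06 there, against 9.52 on static 3D replicate 1 and 9.85 on 2D replicate 1. MCM3 was nearer, with 11.27 there and 12.01 and 11.97 on the 2 high arrays.

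Perfused 3D was compared with 2D to ask what scaffold, flow and seeding change together. The 2 groups also lay on different bead chips, so chip cannot be told apart from them. None of the 37 members differed at an adjusted p of 0.05 (limma's moderated test, Benjamini-Hochberg over 11031 genes), where 0.00907% of all genes did. At an unadjusted p under 0.05 there were 0 members, against 4.23% of all genes. The 1 gene called was CYP3A4, a drug-metabolising cytochrome P450, named here after its value was seen. All 37 members had a lower mean in perfused 3D, with a median log2 difference of -0.76 for replication and -1.0 for mitosis genes against 0.01 for all genes. Since 13 members were not detected on any perfused array, their differences are bounded only, with a bound above 1 in 9 of them, at least 1.03-fold to at least 1.76-fold lower in perfused 3D. Among the 24 detected in both groups the medians were -0.74 and -1.04. In 4 members, MCM6, RRM1, BUB1 and TPX2, both perfused arrays lay below every 2D array, and 10.1% of all genes did so, a share close to that of the members.

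PCNA had the smallest p of the members in that comparison, with a mean of 6.64 ± 0.46 in perfused 3D (SD, n = 2) and 8.30 ± 1.57 in 2D (SD, n = 3). Its log2 difference was -1.65 ± 0.80 (SE; limma, adjusted p = 0.964), and -0.82 where the 2 kept PCNA probes, which disagree, were averaged. RRM1 differed by -0.76 ± 0.52 (SE; limma, adjusted p = 0.964) and MCM6 by -0.80 ± 0.68 (SE; limma, adjusted p = 0.964). None of these passed the test, and the mitosis genes did not either. MAD2L1 differed by -1.32 ± 0.94 (SE; limma, adjusted p = 0.964) and TOP2A by -1.47 ± 1.33 (SE; limma, adjusted p = 0.964). CDK1, detected on 1 of 3 2D arrays and on no perfused array, was at least 1.28-fold lower in perfused 3D (limma, adjusted p = 0.964). This bound uses the lowest level of a detected probe on each perfused array in place of CDK1's own value where that was lower. The 2D mean in it includes undetected values of 6.60 and 5.93 on 2D replicates 2 and 3, so it is not a strict minimum. For BUB1, detected on the same 1 2D array, the bound fell under 1 and no fold is given (limma, adjusted p = 0.964).

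Perfused was compared with static 3D to ask what flow changes within the scaffold. Chip differs in part as well, because static 3D replicates 2 and 3 lay on the other chip. Of the members, 0 passed the adjusted threshold, against 0.00907% of all genes, which is again CYP3A4, and 0 had an unadjusted p under 0.05, against 1.88% of all. All 37 members had a lower mean in perfused 3D, with medians of -0.68 for replication and -0.82 for mitosis genes against 0.00 for all genes. Among the 24 members detected in both groups the medians were -0.69 and -0.93. Of the 13 others, 6 had a bound above 1, at least 1.05-fold to at least 1.30-fold lower in perfused 3D. Both perfused arrays lay below every static 3D array in MCM7, PCNA, BUB1 and PLK1, 4 of 37, where 8.31% of all genes did so. This comparison and the 1 before it share the 2 perfused arrays, so their equal directions are not independent.

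For PCNA the mean was 6.64 ± 0.46 in perfused 3D (SD, n = 2) and 7.96 ± 0.66 in static 3D (SD, n = 3), a log2 difference of -1.32 ± 0.80 (SE; limma, adjusted p = 0.9996). With the 2 kept PCNA probes averaged it was -0.55. MCM7 differed by -0.94 ± 0.74 (SE; limma, adjusted p = 0.9996) and RRM1 by -0.64 ± 0.52 (SE; limma, adjusted p = 0.9996). Of the mitosis genes, PTTG1 differed by -1.12 ± 0.92 (SE; limma, adjusted p = 0.9996), BIRC5 by -1.04 ± 0.83 (SE; limma, adjusted p = 0.9996) and TOP2A by -1.38 ± 1.33 (SE; limma, adjusted p = 0.9996). PLK1 was detected on static 3D replicate 1 only, its bound fell under 1, and no fold is given (limma, adjusted p = 0.9996). None of these differences passed the test.

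Static 3D was compared with 2D to ask what scaffold and seeding change together without flow. Static 3D replicate 1 lay on a different chip from the other arrays compared here. Again 0 members passed the adjusted threshold, against 0% of all genes, and 0 had an unadjusted p under 0.05, against 4.70% of all (519 genes). The members were lower in 26 and higher in 11 cases, with medians of -0.10 for replication and -0.21 for mitosis genes against 0.00 for all. Leaving out single arrays turned or enlarged those medians. They became 0.52 and 0.67 without 2D replicate 1, -0.35 and -0.50 without 2D replicate 2, and -0.53 and -0.77 without 2D replicate 3. They were -0.58 and -0.87 without static 3D replicate 1, 0.25 and 0.34 without static 3D replicate 2, and 0.12 and 0.16 without static 3D replicate 3. In 0 members did the groups fail to overlap with static 3D lower, against 5.18% of all genes. MAD2L1 had the smallest p of the members, with 7.25 ± 0.83 in static 3D and 8.25 ± 1.87 in 2D (SD, n = 3 each), a log2 difference of -1.0 ± 0.84 (SE; limma, adjusted p = 0.947). CENPA differed by -0.58 ± 0.75 (SE; limma, adjusted p = 0.962) and CDKN3 by -0.62 ± 0.96 (SE; limma, adjusted p = 0.970). The replication genes were nearer to 0: MCM6 at -0.28 ± 0.60, PCNA at -0.34 ± 0.72 and MCM5 at 0.28 ± 0.62 (SE; limma, adjusted p = 0.975, 0.975 and 0.978). TOP2A was at -0.10 ± 1.19 (SE; limma, adjusted p = 0.9998).

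Static 3D and 2D each held 1 of the 2 high arrays, and the members' errors were wide. The median standard error of a member's log2 difference was 0.84 in either comparison with perfused 3D and 0.75 between static 3D and 2D, against 0.33 and 0.29 over all genes. Both high arrays were then left out, an alternative chosen after seeing the data, which leaves 2 arrays per group. The members' median standard error was then 0.30, near the 0.28 of all genes. Leaving out the highest array of static 3D and of 2D narrows the members' range in those groups by the choice itself.

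With these 6 arrays most of the lower means in perfused 3D came close to 0. The arrays left out were the highest for each of the 37 members, so leaving them out had to lower the static 3D and 2D means. The direction of this shift was thus fixed in advance and is no finding of its own. Against 2D, the medians were -0.13 for replication and -0.10 for mitosis genes, with 26 of 37 lower in perfused 3D. Against static 3D they were -0.10 and -0.02, with 21 of 37 lower. Static 3D against 2D gave -0.07 and -0.06, with 21 of 37 lower. All these medians include the 10 members detected on the high arrays only, whose values on the 6 arrays are under the detection limit. Medians without such members were not computed. In both perfused comparisons PCNA had the largest difference among the members in this fit, at -0.79 ± 0.46 against 2D (SE; limma, adjusted p = 0.955) and -1.04 ± 0.46 against static 3D (SE; limma, adjusted p = 0.808). These values rest on the brightest PCNA probe. The second kept probe was not lower in perfused 3D, with 7.11 and 7.24 there, 6.94 and 7.02 in static 3D, and 6.66 and 7.42 in 2D on these 6 arrays. AURKA, named after its value was seen, was higher in perfused than in static 3D by 0.91 in log2, the 1 member with an unadjusted p under 0.05 (limma, adjusted p = 0.808).

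Those 6 arrays called 0 members in any comparison by adjusted p. Over all genes, 0.0181% were called for perfused 3D against 2D, and 0.00907% for perfused against static 3D as for static 3D against 2D. The genes called were CYP3A4 in both perfused comparisons and HILPDA, a lipid droplet gene of the hypoxia response, in both scaffold groups against 2D, named after their values were seen. By unadjusted p, 5.15%, 5.97% and 5.46% of all genes passed in these 3 comparisons, in the order just given, against 0, 1 and 0 members. The 37 members would not all have been measured without the high arrays: 24 would pass the detection filter on the 6, and 27 when either high array alone is left out.

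**Figure D5:**
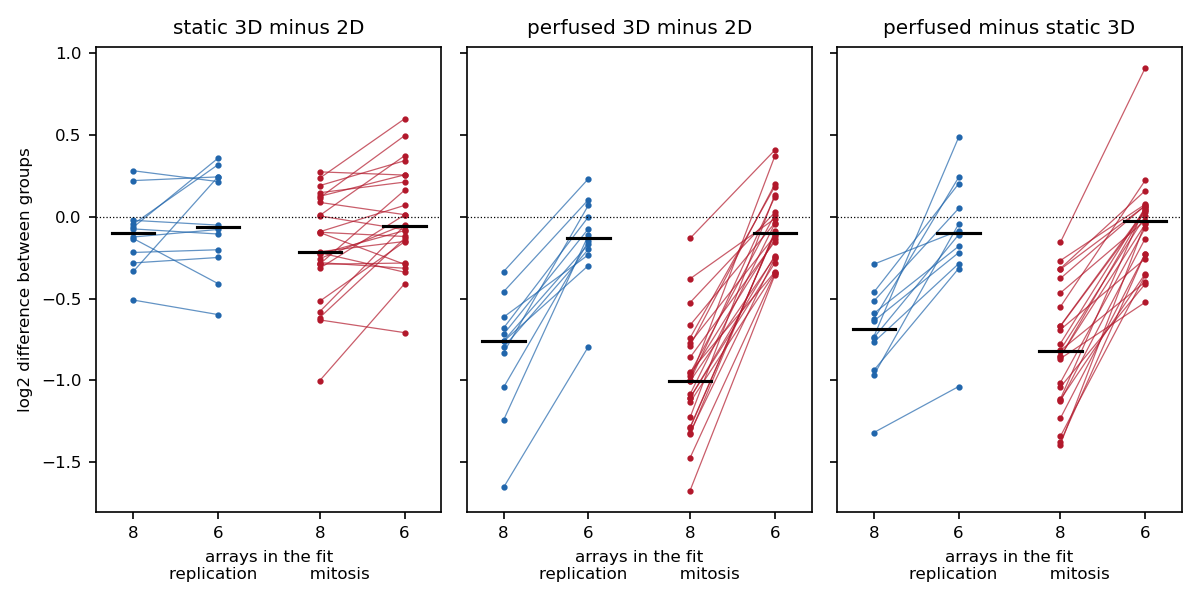
Log2 difference between groups for each measured gene (lines join a gene's values) in the fit of 8 arrays and in the fit of 6 arrays without static 3D replicate 1 and 2D replicate 1, with replication genes in blue and mitosis genes in red and black bars at the medians; genes not detected in perfused 3D are drawn at their fitted values. In the perfused comparisons the medians of -0.68 to -1.0 with 8 arrays become -0.13 to -0.02 with 6. The arrays left out were the highest for every gene drawn, so the direction of this shift was fixed in advance.

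Other genes of the cycle were read from lists of genes that are not members. Of 27 further replication genes measured, 21 lay above all 6 other arrays on both high arrays, and of 46 further mitosis genes 44 did, against 12.8% of all genes. Detected on all 8 arrays were 10 and 15 of them, of which 8 and 14 lay so. TK1, thymidine kinase, had the widest range of the further replication genes, at 7.71 and 7.38 in perfused 3D, 10.88, 7.55 and 8.08 in static 3D, and 10.24, 7.69 and 6.55 in 2D. UHRF1, which keeps DNA methylation through replication, had 9.96 and 10.40 on static 3D replicate 1 and 2D replicate 1 and 6.81 to 8.45 elsewhere. CDC45, the helicase partner of GINS, had 8.96 and 9.16 against 6.0 to 6.60, and the clamp loader RFC5 8.99 and 9.46 against 6.49 to 7.40. NCAPG, a condensin subunit, had 10.01 and 10.12 against 5.87 to 6.86, and the midzone gene RACGAP1 9.38 and 9.86 against 6.12 to 7.15. The midbody gene CEP55 differed between the 2 arrays, with 7.88 in static 3D and 9.43 in 2D, against 5.63 to 6.02 elsewhere. Of these lists 0 genes were called in any of the 3 comparisons.

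Regulators of cell cycle entry and arrest did not all share the pattern. Of 11 genes of G1 and cell cycle entry, 4 were above the other 6 arrays on both high arrays, and of 11 genes of the DREAM complex and its relatives 2 were. The share of all genes was 12.8%, to which the DREAM count is close. The detection filter favours these counts too. Among genes detected on all 8 arrays, 2 of 8 genes of G1 and entry and 2 of 6 DREAM genes lay so. CDC25A, a phosphatase that activates CDKs, was detected on the 2 arrays only, at 8.05 and 7.84, with 5.46 to 5.82 elsewhere. CDK2, detected on all arrays, had 9.82 and 9.89 on the 2 arrays against 8.49 to 9.03. CCND1, cyclin D1 of early G1, lay at 13.14 and 12.57 in perfused 3D, 13.23, 13.34 and 12.53 in static 3D, and 13.01, 13.06 and 12.76 in 2D, with no array apart. CCND2, another D-type cyclin, was highest on 2D replicate 2 at 9.43. Of 12 CDK inhibitor and p53 target genes, 0 were above and 4 below the other arrays on both. For lying below, the share of all genes was not computed, so that count has no background. CDKN1A, the p21 inhibitor, lay at 14.43 and 14.95 in perfused 3D, 13.68, 14.34 and 14.65 in static 3D, and 13.40, 14.41 and 15.18 in 2D. CDKN1B, the p27 inhibitor, lay at 8.36 and 7.94 in perfused 3D, 7.58, 8.44 and 8.72 in static 3D, and 7.84, 8.21 and 8.54 in 2D. Both inhibitors had their 2 lowest values on static 3D replicate 1 and 2D replicate 1. Other genes of this list differed. TP53INP1 was lower there too, at 9.29 and 8.28 against 10.47 to 11.23 elsewhere. ZMAT3 was not, with 14.48 and 13.47 against 12.54 to 14.67, nor was CCNG1, with 10.18 and 11.10 against 9.44 to 10.27. In these lists too 0 genes were called in any comparison.

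Different probes of a gene did not always report the same thing. Of the 41 members 16 had several probes, and 11 of the 60 probes were not detected on any array. Second probes of MCM3, MCM4, AURKA, NUSAP1, PTTG1 and FOXM1 were also higher on the 2 high arrays than on the other 6. Those of PCNA and MAD2L1 were not, and the second MCM7 probe, detected on 2 arrays, stayed between 6.43 and 6.85. The results for PCNA, MAD2L1 and MCM7 rest on the brightest probe of each.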

How the data were processed

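RNA was amplified with the Illumina TotalPrep kit, labelled with biotin and read with streptavidin-Cy3, per the labels' protocols. Per the file headers, the authors deposited a mean bead intensity per probe and a detection p-value beside it. The intensities were not normalised between arrays, with medians of 279 to 386. A second table deposited by the authors holds log2 values, the scale being read from the numbers (medians 7.46 to 7.64). How they normalised and centred it is not stated in the sources used here. It was an alternative only.

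Intensities of 47323 probes were background-corrected in limma 3.58.1 under R 4.3.3 (normexp, negative controls inferred from the detection p-values, offset 16), followed by log2 and quantile normalisation. Probes were kept at a detection p under 0.05 on at least 2 arrays, and the brightest kept probe stood for a gene (11031 genes). Of all probes, 30113 carry 1 gene symbol, 8 several and 17202 none. Per array, 29.7% to 34.3% of probes were detected, and the number of arrays limits the precision.

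All 8 arrays entered 1 model with a mean per group (lmFit, eBayes with trend), two-sided, with Benjamini-Hochberg adjustment over all genes at 0.05. The procedure was tested on simulated data with independent noise per gene and array. Those data held no arrays that move many genes together, so the test does not cover that situation. A gene not detected in a group has only a bound, "at least", for which each array of that group takes its lowest detected level or the gene's own value, whichever is higher. In the brighter group, arrays without detection kept their own values, so the bounds are not strict minima. Promoters came from RefSeq. Members and lists were chosen with earlier results of these data known. The rule for named genes allowed fold changes of the 3 replication and 3 mitosis members with the smallest p per comparison plus TOP2A, MKI67 and PCNA, up to 4 genes of widest range per other cell cycle list plus fixed regulators, and fixed cell type markers. GPC3 of the markers was not measured. Chip 1 held static 3D replicate 1 and both perfused arrays, chip 2 the other 5. Replicate numbers follow accession order and pair nothing. Alternatives covered background, scaling, filters, probe choice, array weights, chip, the authors' values and leaving out arrays.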

Additional observations from a re-analysis of the deposited data

How the results depend on the processing

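No member was called in any of the 3 comparisons under the alternatives that tested them, with 13 members tested where probes had to be detected on all 8 arrays and 37 or 41 otherwise, and the smallest adjusted p of a member was 0.5305, with chip as a fixed block. Of 406 values of the 21 named fold changes under alternatives, 390 kept their direction, 16 reversed and 0 crossed the threshold. The reversals were all for static 3D against 2D. With array weights PCNA was 0.17 and TOP2A 0.016, with chip as a fixed block MCM5 was -0.35, and without both high arrays PCNA was 0.24. Leaving out each array in turn gave -0.85 to 0.32 for MCM6, -1.01 to 0.52 for PCNA, -0.35 to 0.84 for MCM5, -1.68 to 0.065 for MAD2L1, -1.11 to 0.39 for CENPA, -1.31 to 0.56 for CDKN3 and -1.25 to 1.03 for TOP2A, with the highest value of each without 2D replicate 1. The number of genes called over the whole table for perfused 3D against 2D and against static 3D was 0 and 0 with probes detected on all 8 arrays, 2 and 2 with no detection filter, and 0 and 0 with chip as a fixed block. Leaving out arrays in turn gave 0 to 1 for perfused 3D against 2D (0 without perfused replicate 2), and without both high arrays it was 2, and 1 for static 3D against 2D.

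The perfused and 2D arrays lie on different chips, so chip as a fixed block rests by construction on static 3D replicate 1, a high array. The medians for perfused 3D against 2D were then -2.49 for replication and -3.37 for mitosis genes, with 0.61 between the list means, and for perfused against static 3D -1.83 and -2.30. Within chip 2, static 3D against 2D leaves out static 3D replicate 1. Where leaving out a perfused array leaves 1, that array is assumed to vary like the other groups. Leaving out each array in turn gave medians of -1.13 to -0.13 for replication and -1.59 to -0.10 for mitosis genes for perfused 3D against 2D, both nearest to 0 without 2D replicate 1. For perfused against static 3D it gave -1.10 to -0.10 and -1.25 to -0.02, nearest to 0 without static 3D replicate 1, and for static 3D against 2D -0.58 to 0.52 and -0.87 to 0.67. Array weights gave -0.25 and -0.33 for perfused 3D against 2D, -0.30 and -0.28 for perfused against static 3D, and 0.048 and -0.022 for static 3D against 2D. Median scaling moved the median of all genes by -0.13 for static 3D against 2D and 0.12 for perfused against static 3D. With a detection p under 0.01, 10 members were detected on static 3D replicate 2, against 18 at 0.05. Members near the detection limit have little resolving power on these arrays.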
